A study of Mus musculus with 6 samples.

Results

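The comparison described here sets leukaemic bone marrow from mice given cytarabine and doxorubicin (AraC+Dox) against marrow from mice given PBS, with both libraries labelled MA9 Shp-1 Δ/Δ. It holds 18877 of the 44672 kept cells of the series (42.3%): 9431 from the PBS library and 9446 from the AraC+Dox library. MA9 stands for the MLL-AF9 fusion gene, here carried by leukaemias that the labels' protocol traces to transfected mouse embryonic stem cells. Δ/Δ marks deletion of Shp-1, the tyrosine phosphatase encoded by Ptpn6, and f/f, in common usage, the floxed allele without deletion. The series also holds an MA9 f/f pair and a pair of Hoxa9-Meis1 leukaemias, again PBS and AraC+Dox. The promoter or Cre behind the deletion, the doses, the interval between treatment and harvest, and the ages and number of the mice are stated in none of the sources used here. Each group is 1 library, so nothing below was tested. Intervals are exact 95% intervals that cover counting error alone, since PCR and the sampling of mice and cells add spread they do not hold.

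Cytarabine is a nucleoside analogue that stalls DNA synthesis, and doxorubicin poisons topoisomerase II, so both act most on cells in cycle. MLL-AF9 keeps myeloid progenitors in a self-renewing state that depends on Hoxa9 and Meis1, and such leukaemias are organised from stem-like cells through granulocyte and monocyte precursors. Shp-1 removes phosphate from tyrosines downstream of cytokine receptors and inhibitory immune receptors in blood cells.

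Cells with at least 500 genes and at most 10% mitochondrial UMIs (unique molecular identifiers, counted as transcripts) were kept. They were then split by rule: Camp+Ngp-high cells had at least 3% of their UMIs from the neutrophil granule genes Camp and Ngp, Csf1r-positive cells had at least 1 UMI of the macrophage colony-stimulating factor receptor and were not Camp+Ngp-high, and the remaining cells were neither. Per library and class, UMIs were added up and expressed per 1000000 UMIs of that class (CPM, counts per 1000000). The log2 ratio is AraC+Dox over PBS. A gene is called higher or lower where its ratio was at least 2-fold with the interval past 0 and it reached 20 CPM in either library. For members of a gene list the rule was an absolute log2 ratio of at least 0.32 with the interval past 0 and 5 CPM (the list rule). Both are rules of size, and where a gene passed neither its values are given without a direction.

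The PBS and AraC+Dox libraries held 90247539 and 103581646 UMIs in kept cells, with medians of 7463 and 10112.5 UMIs a cell. The median mitochondrial share was 3.17% and 3.64%, and 5.22% and 8.30% of barcodes were left out for passing the mitochondrial limit. The libraries shared 24 cell barcodes, within the 18 to 27 shared by any pair of MA9 libraries. Haemoglobin transcripts summed to 5.12 CPM with PBS and 65.3 CPM with AraC+Dox. Cells marked as B cells (at least 2 UMIs of Cd79a and 1 of Cd79b) were 3.94% and 3.60% of kept cells, and cells marked as T cells (at least 2 UMIs of Cd3e and Cd3d together) were 3.54% and 1.99%.

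The targeted gene went against the label of the PBS library. Ptpn6 (ENSMUSG00000004266, chr6:124720707-124738714, minus strand, GRCm38) stood at 172 CPM in the library labelled Δ/Δ PBS, close to 186 CPM in that labelled f/f PBS. The Δ/Δ AraC+Dox library held 43.6 CPM and the f/f AraC+Dox library 57.7 CPM. The Hoxa9-Meis1 libraries held 135 CPM with PBS and 113 CPM with AraC+Dox. Within the Δ/Δ pair the log2 ratio of Ptpn6 was -1.98 (-2.03 to -1.93). It was -2.21 in Camp+Ngp-high cells, -2.20 in Csf1r-positive cells and -1.91 in the remaining cells. In cells marked as B cells it was -0.37 (-0.65 to -0.10), from 217 to 168 CPM, and in cells marked as T cells -0.28 (-0.68 to 0.11), from 132 to 109 CPM. The step in Ptpn6 was seen in all 3 classes and was small in lymphocyte-marked cells. The exons removed by the deletion are not stated, and UMIs read at the 3′ end of a gene may lie outside them. Lower Ptpn6 with AraC+Dox, deletion in the AraC+Dox library alone and an exchange of labels cannot be told apart here. Were the labels Δ/Δ PBS and f/f AraC+Dox exchanged, the comparison would be of Δ/Δ with f/f, both given AraC+Dox. "PBS" and "AraC+Dox" below are short for the libraries so labelled.

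Csf1r-positive cells made up a larger share of the marrow with AraC+Dox, and the remaining cells a smaller one. Csf1r-positive cells were 1618 of 9431 (17.2%, 16.4 to 17.9) with PBS and 2411 of 9446 (25.5%, 24.6 to 26.4) with AraC+Dox. The remaining cells were 7586 (80.4%) and 6778 (71.8%). Camp+Ngp-high cells were few in both: 227 (2.41%, 2.11 to 2.74) and 257 (2.72%, 2.40 to 3.07), with overlapping intervals. In the f/f pair Camp+Ngp-high cells were 36.9% and 33.6%, and Csf1r-positive cells 17.4% and 22.1%. Of the Csf1r-positive cells, 1040 and 1466 held just 1 Csf1r UMI. Depth differed with the library, since the remaining cells had medians of 6846.5 and 10674.5 UMIs, and with cells thinned to 3000 UMIs before the split the log2 ratio of the share of remaining cells was -0.061 against -0.16 unthinned. Camp+Ngp-high cells with 3% to under 6% of UMIs from those genes, just inside the limit, were 141 and 179, and cells just outside it, at 1% to under 3%, were 177 and 270.

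**Figure D1:**
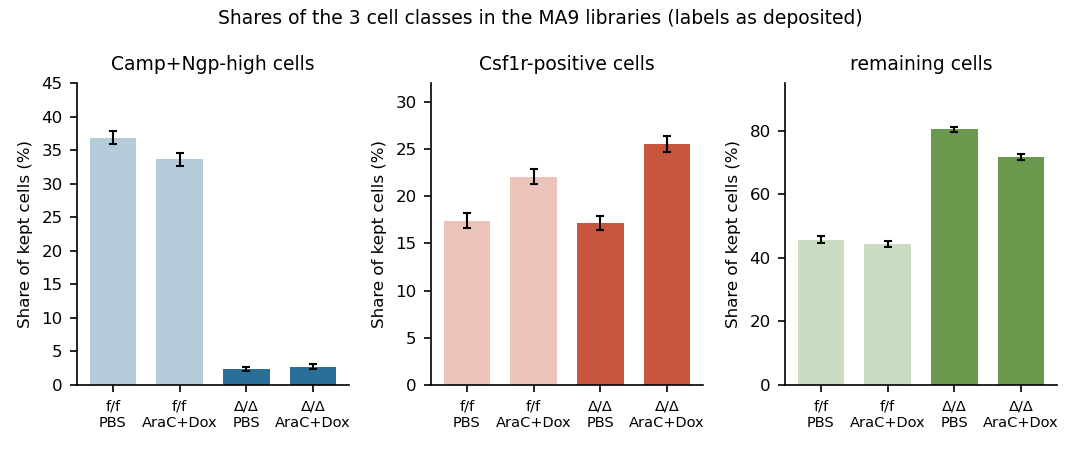
Share of kept cells (%, y axis) in each class in the 4 MA9 libraries, labels as deposited; bars are shares and whiskers exact 95% binomial intervals. Camp+Ngp-high cells are under 3% of both Δ/Δ libraries and above 30% of both f/f libraries, and the Csf1r-positive share is higher in the AraC+Dox library of each pair.

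Over all kept cells, 48 of 6026 genes (0.797%) were higher and 92 (1.53%) lower with AraC+Dox. The change in class shares accounted for little of this in arithmetic: with both libraries weighted to the class mix of the PBS library, 136 of the 140 genes kept a 2-fold ratio. Mix alone moved 1 gene by an absolute log2 ratio of 0.32 or more and 0 by 2-fold. This weighs the 3 classes only and cannot register a shift of cell types inside a class. Cells marked as T cells, for instance, were 4.26% of the remaining cells with PBS and 2.55% with AraC+Dox. The values that follow are within classes.

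In the remaining cells, stem and progenitor genes were lower with AraC+Dox, while genes of primary granules, histones, serine synthesis, S phase and glycolysis were higher. In this class 56 of 6019 genes were higher (0.93%) and 123 lower (2.04%). By the list rule 949 of 9316 genes were higher (10.2%) and 2257 lower (24.2%), with a median log2 ratio of -0.084. The AraC+Dox library here was deeper, and median-of-ratios scaling raised every ratio in the class by 0.11, to 74 higher and 99 lower by the 2-fold rule.

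Of 18 stem and progenitor genes measured, 15 were lower and 1 higher by the list rule, with a median of -1.02. Cd34, a sialomucin of progenitors, went from 106 to 18.6 CPM (log2 ratio -2.51, -2.59 to -2.43). Flt3, the receptor of FLT3 ligand, went from 70.6 to 16.5 CPM (log2 ratio -2.10, -2.19 to -2.01), and Kit, the stem cell factor receptor, from 42.7 to 20.5 CPM (log2 ratio -1.06, -1.15 to -0.97). All 3 were at least 2-fold lower in the AraC+Dox library. Gata2, a transcription factor of stem cells and of the mast cell line, went from 33.5 to 7.12 CPM (log2 ratio -2.24, -2.37 to -2.10). Sox4, a transcription factor of progenitors, went from 175 to 55.2 CPM (log2 ratio -1.66). The stem cell regulator Hlf was low throughout and went from 9.10 to 0.931 CPM (log2 ratio -3.29, -3.67 to -2.93). Nearer to level were the transcription factors Myb, from 374 to 350.4 CPM, and Mecom, from 84.5 to 69.3 CPM.

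The deepest drops of that list were in Adgrl4 and Angpt1. Adgrl4, an adhesion G protein-coupled receptor (chr3:151437887-151545086, plus strand), went from 68.6 to 5.27 CPM (log2 ratio -3.70, -3.86 to -3.56). Angpt1, the ligand of the TIE2 receptor, went from 52.3 to 4.91 CPM (log2 ratio -3.41, -3.57 to -3.26). Both passed the rule in the Csf1r-positive cells as well, and both were lower in the f/f pair over all cells, Adgrl4 from 24.7 to 1.84 CPM and Angpt1 from 12.5 to 1.73 CPM.

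The MLL-AF9 programme did not move as a block. Of 23 measured genes of the Hoxa cluster, Meis1 and MLL targets, 10 were lower and 1 higher, with a median of -0.12 against -0.084 for all genes. Pbx3, a DNA-binding partner of HOX proteins, went from 83.1 to 6.90 CPM (log2 ratio -3.59, -3.72 to -3.46) and was among the 10 lowest genes of the class. Meis1 went from 149.8 to 76.2 CPM (log2 ratio -0.97, -1.02 to -0.93) and Kmt2a, the mouse MLL gene itself, from 439 to 215 CPM (log2 ratio -1.03, -1.05 to -1.0). Hoxa9 lay the other way, from 177 to 214 CPM (log2 ratio 0.27, 0.24 to 0.30), short of the list rule. Whether any of the Kmt2a UMIs come from the MLL-AF9 fusion transcript was not tested, so they are no measure of the fusion.

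Several of the lowest genes belong to rarer marrow cells. Cpa3, carboxypeptidase of mast cells and early progenitors, went from 82.4 to 1.09 CPM (log2 ratio -6.24, -6.57 to -5.92). Prg2, the eosinophil major basic protein, went from 61.1 to 3.76 CPM (log2 ratio -4.02, -4.20 to -3.85). Cxcl12, a chemokine of marrow stroma, went from 27.9 to 4.74 CPM (log2 ratio -2.56, -2.73 to -2.40). The marker lists of those cells did not all move with them. Stromal and endothelial markers, Cxcl12 among them, summed to 312 and 151 CPM, and 7 of 7 measured were lower by the list rule. Eosinophil markers summed to 74.7 and 10.7 CPM, with 1 of 2 measured lower, Prg2 itself. Mast cell and basophil markers summed to 159 and 62.0 CPM, but of 4 measured 2 were lower, Cpa3 and Gata2, which progenitors also express, and 1 was higher. That one was Mcpt8, a basophil protease, from 18.9 to 31.6 CPM (log2 ratio 0.74). Fewer such cells and less RNA per cell cannot be told apart in summed counts. Of the mast cell markers Mcpt4 and Tpsb2 were at 0 in both libraries and Prss34 was at 0 with AraC+Dox, and of the eosinophil markers Ear1 was at 0 with AraC+Dox. Without the B and T cell-marked cells Prg2 stood at -5.35, and with classes drawn from thinned cells Cpa3 stood at -6.94.

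Other genes among the 10 lowest were Xlr, from 86.5 to 3.8 CPM (log2 ratio -4.51, -4.68 to -4.34), an X-linked gene of lymphoid and germ cells, and Ddx4, a germ cell RNA helicase, from 26.4 to 2.33 CPM (log2 ratio -3.50, -3.73 to -3.28). Glipr1l1 went from 21.6 to 3.38 CPM (log2 ratio -2.68). Xlr was lower in every class, and Xlr, Adgrl4, Cd34, Pbx3 and Ddx4 were lower with AraC+Dox in the f/f pair too.

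Primary granule genes, which encode the proteases and the peroxidase of promyelocytes, were higher in 8 of 10 measured members and lower in 1, with a median of 0.59. Elane, neutrophil elastase (chr10:79886247-79888215, plus strand), went from 3102 to 6284 CPM (log2 ratio 1.02, 1.01 to 1.03). Prtn3, proteinase 3, went from 3669 to 6539 CPM (log2 ratio 0.83, 0.83 to 0.84), Ctsg, cathepsin G, from 2432 to 4285 CPM (log2 ratio 0.82, 0.81 to 0.83), and Mpo, myeloperoxidase, from 2986 to 5110.5 CPM (log2 ratio 0.78, 0.77 to 0.78). Ms4a3, a membrane protein of granulocyte and monocyte progenitors, went from 615 to 1089 CPM (log2 ratio 0.83). The 14 neutrophil markers summed to 11996 CPM with PBS and 20508 CPM with AraC+Dox in these cells, a sum led by S100a8, from 7124 to 12576 CPM. By count they went both ways, with 5 of 14 higher and 6 lower, among the lower Ly6g, from 31.6 to 13.2 CPM (log2 ratio -1.26). By median the secondary and tertiary granule list stood at 0.16, with 6 of 16 members higher and 6 lower: Fcnb, ficolin-B of myelocytes, went from 106 to 262 CPM (log2 ratio 1.31), and Mmp9, gelatinase, from 65.3 to 21.1 CPM (log2 ratio -1.63).

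Growth and replication genes were higher. All 8 serine and one-carbon genes that passed the rule, of 10, were higher, with a median of 0.55. Phgdh, the entry enzyme of serine synthesis, went from 57.4 to 114 CPM (log2 ratio 0.99, 0.93 to 1.04), and Mthfd2, of mitochondrial folate metabolism, from 29.2 to 48.9 CPM (log2 ratio 0.74, 0.66 to 0.82). In S phase genes 14 of 28 were higher and 0 lower (median 0.32), led by Rrm2, the small subunit of ribonucleotide reductase, from 124 to 263 CPM (log2 ratio 1.09, 1.05 to 1.13), and Dut, which degrades dUTP, from 296 to 489 CPM (log2 ratio 0.73). Ribosome and nucleotide biogenesis had 11 of 27 higher and 0 lower (median 0.30), with Cad, of pyrimidine synthesis, from 24.7 to 37.4 CPM (log2 ratio 0.60). Mitosis genes were mixed, 5 of 28 higher and 7 lower (median 0.15): Aurkb, of the chromosomal passenger complex, had a log2 ratio of 0.68, and cyclin B2, Ccnb2, from 173 to 89.1 CPM (log2 ratio -0.96).

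Replication-dependent and linker histones were higher in 14 of 20 measured and lower in 2 (median 0.58). Hist1h2ap, an H2A gene (chr13:21833026-21833507, minus strand), went from 45.8 to 506 CPM (log2 ratio 3.46, 3.41 to 3.52), the highest ratio of the class. Hist1h2ae went from 173 to 498 CPM (log2 ratio 1.53) and Hist1h2bj from 42.4 to 103 CPM (log2 ratio 1.29). H2A genes are near-identical copies and mostly lack a poly(A) tail, so how reads were split among them is uncertain. In the f/f pair Hist1h2ap lay the other way, from 88.0 to 15.8 CPM.

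In glycolysis 9 of 17 genes were higher and 2 lower (median 0.34). Eno1, enolase, went from 131 to 345 CPM (log2 ratio 1.39, 1.36 to 1.43), Slc16a1, the lactate transporter MCT1, from 11.6 to 25.3 CPM (log2 ratio 1.12), and Gpi1, glucose-6-phosphate isomerase, from 559 to 740.3 CPM (log2 ratio 0.41). Pfkp, the platelet-type phosphofructokinase (chr13:6579768-6648777, minus strand) named in the series title, went from 42.7 to 59.4 CPM (log2 ratio 0.48, 0.41 to 0.54). Fbp1, which runs the opposing step of gluconeogenesis, went from 34.8 to 27.4 CPM (log2 ratio -0.34). Nuclear genes of oxidative phosphorylation stood close to level: 6 of 75 were higher and 0 lower, with a median of 0.081. Eno1 over all cells was lower in the f/f pair, from 132 to 89.2 CPM.

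Interferon response, JAK-STAT and inflammatory cytokine genes were more often lower than higher in this class. Of 31 interferon response genes 22 were lower and 3 higher (median -0.53). Irf7, a master regulator of type I interferon, went from 25.9 to 13.6 CPM (log2 ratio -0.93, -1.04 to -0.82), and Irf1 from 35.2 to 18.9 CPM (log2 ratio -0.90, -1.0 to -0.80). Among those that passed the other way were Ifitm1, from 48.7 to 97.3 CPM (log2 ratio 1.0, 0.94 to 1.06), and Ifitm3, from 125 to 217 CPM (log2 ratio 0.79), which encode membrane proteins that hinder virus entry. The third member of that family, Ifitm2, went from 431 to 521 CPM (log2 ratio 0.27). Of 11 inflammatory cytokine and chemokine genes 7 were lower and 1 higher (median -0.67). Ccl4, a chemokine for T and NK cells and monocytes, went from 72.5 to 22 CPM (log2 ratio -1.72, -1.80 to -1.64), Ccl3 from 139 to 69.8 CPM (log2 ratio -0.99), Ccl5 from 96.1 to 35.9 CPM (log2 ratio -1.42) and Il1b, interleukin-1 beta, from 16.0 to 2.99 CPM (log2 ratio -2.42). In JAK-STAT 11 of 19 were lower and 1 higher (median -0.36), with the kinase Jak1 from 129.6 to 90.8 CPM (log2 ratio -0.51). T cell markers summed to 101 CPM with PBS and 50.9 CPM with AraC+Dox, and 11 B cell markers to 178 and 115 CPM.

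Survival genes and drug-handling genes can be read in the same cells. In the BCL2 family 7 of 13 were lower and 0 higher (median -0.37). Bcl2 went from 88.9 to 49.9 CPM (log2 ratio -0.83, -0.89 to -0.77). Of the other members, Pmaip1 (NOXA) went from 73.5 to 49.9 CPM (log2 ratio -0.56, -0.62 to -0.50). Bbc3 (PUMA) went from 18.8 to 10.9 CPM (log2 ratio -0.79). Mcl1 went from 250.4 to 222 CPM (log2 ratio -0.17). Among 19 p53 targets 6 were lower and 1 higher (median -0.14); Cdkn1a, the cell cycle inhibitor p21, went from 84.6 to 70.4 CPM (log2 ratio -0.27) and Sesn1 from 25.0 to 14.1 CPM (log2 ratio -0.83). Of 14 cytarabine-handling genes 4 were higher and 2 lower. Samhd1, which hydrolyses cytarabine triphosphate, went from 87.6 to 53.9 CPM (log2 ratio -0.70, -0.76 to -0.64). Of 14 anthracycline-handling genes 6 were higher and 4 lower. Top2a, the topoisomerase that doxorubicin poisons, went from 446 to 589.7 CPM (log2 ratio 0.40, 0.38 to 0.42), the carbonyl reductase Cbr1, which reduces anthracyclines, from 23.4 to 14.2 CPM (log2 ratio -0.73), and the efflux pump Abcb1b from 21.5 to 15.0 CPM (log2 ratio -0.51). Of the 17 measured genes for Shp-1 and inhibitory receptor partners 9 were lower and 3 higher (median -0.40). Beside Ptpn6 itself, Cd300a went from 36.7 to 21.3 CPM (log2 ratio -0.79), Cd33 from 63.5 to 37.7 CPM (log2 ratio -0.75) and Pecam1 from 156 to 98.3 CPM (log2 ratio -0.67). The related phosphatase Ptpn11 (Shp-2) went from 56.3 to 51.3 CPM (log2 ratio -0.13).

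Apart from Hist1h2ap and Wfdc21, the 10 highest genes of the remaining cells stood at 10.2 CPM or less with PBS. Krtcap3, a keratinocyte-associated membrane protein, went from 4.58 to 29.6 CPM (log2 ratio 2.69, 2.52 to 2.87). Lipg, endothelial lipase, went from 10.2 to 64.1 CPM (log2 ratio 2.65, 2.54 to 2.77), and Mgam, maltase-glucoamylase, from 5.50 to 29.7 CPM (log2 ratio 2.43, 2.28 to 2.59). Gdf3, a TGF-beta family ligand of pluripotent cells, went from 9.70 to 50.8 CPM (log2 ratio 2.39, 2.27 to 2.51). Tmem108, Cdk5rap1 and Hsd11b1 had log2 ratios of 2.19, 1.90 and 1.83. Wfdc21, a whey acidic protein domain gene of neutrophils, went from 79.8 to 315 CPM (log2 ratio 1.98, 1.94 to 2.02). A wider lymphoid mark took any cell with at least 2 UMIs of Cd79a+Cd79b, of Cd3e+Cd3d+Cd3g, of Jchain or of Nkg7. It took in 48.3% of the remaining cells with PBS and 62.9% with AraC+Dox. Values without it thus compare unequal parts of the class in the 2 libraries. In the remaining cells without this mark Wfdc21 stood at -0.081, Mgam at 0.81, Hsd11b1 at 0.70, Ddx4 at -2.44, Xlr at -3.30 and the secondary and tertiary granule median at -0.56. Pfkp stood at 1.01 (0.88 to 1.14) in the remaining cells without it and at 0.29 (0.21 to 0.37) in those with it. The wider mark also takes in many leukaemic cells: those holding it had Hoxa9 at 168 and 209 CPM, against 50.5 and 61.2 CPM in B cell-marked cells.

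**Figure D2:**
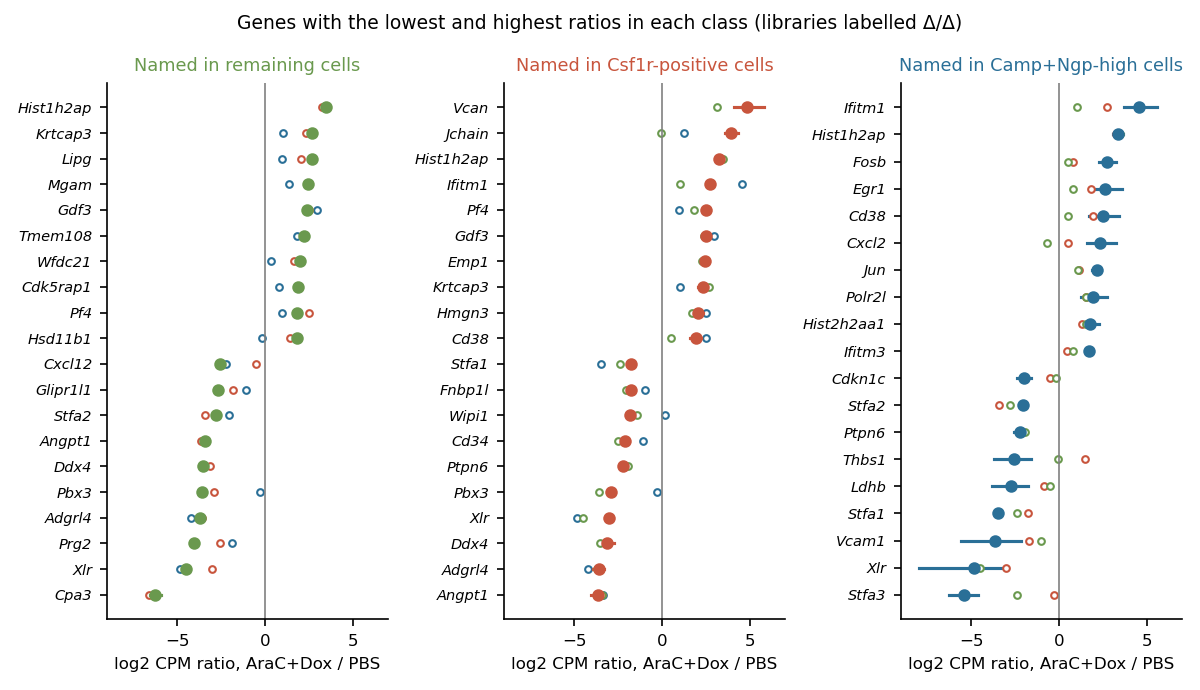
Log2 ratio of CPM, AraC+Dox over PBS (x axis), for up to 10 of the highest and up to 10 of the lowest genes of each class (y axis). Filled points and their lines are the ratio and exact 95% interval in the class a panel is named for, and open points are the other 2 classes in their own colours. Hist1h2ap lies above 3 in every class, while Jchain stands apart in the Csf1r-positive cells and Stfa3 in the Camp+Ngp-high cells.

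In Csf1r-positive cells, which carry the monocyte receptor, 48 of 6057 genes were higher (0.792%) and 55 lower (0.908%). Here too stem and progenitor genes were lower and histone and serine synthesis genes higher, while Vcan, Emp1 and Klf4 were higher. By the list rule 893 of 9365 genes were higher (9.54%) and 1381 lower (14.7%), with a median of -0.043. The 14 monocyte markers summed to 3662 and 3848 CPM, and all 14 were detected in both libraries. Of these markers 3 of 14, Klf4 among them, were higher by the list rule and 0 lower (median 0.056). The class by its rule takes any cell with a Csf1r UMI, so it holds progenitor transcripts as well: the 12 stem and progenitor markers summed to 2778 and 3004 CPM. That sum is led by Mpo, from 1980.5 to 2516 CPM, while 8 of 11 measured members were lower and 2 higher (median -0.86). In the remaining cells the same markers summed to 3993 and 5679 CPM, again led by Mpo, from 2986 to 5110.5 CPM, with 9 of 12 lower and 2 higher (median -1.31).

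Vcan, versican, an extracellular proteoglycan made by classical monocytes, went from 0.721 to 21.0 CPM (log2 ratio 4.87, 4.08 to 5.78), the highest ratio in this class. It was higher in the f/f pair too, from 0.154 to 2.12 CPM over all cells. Emp1, an epithelial membrane protein, went from 11.4 to 61.2 CPM (log2 ratio 2.43, 2.22 to 2.65). Klf4, a transcription factor of monocytes, went from 50.7 to 97.1 CPM (log2 ratio 0.94, 0.83 to 1.05). Ifitm1 went from 35.0 to 234 CPM (log2 ratio 2.74, 2.62 to 2.86) and Cd38, a NAD-consuming ectoenzyme, from 5.55 to 21.1 CPM (log2 ratio 1.92, 1.61 to 2.25). Gdf3 went from 10.4 to 58.4 CPM (log2 ratio 2.49, 2.27 to 2.71), as in the remaining cells. Krtcap3 and Hmgn3 had log2 ratios of 2.33 and 2.05. With classes drawn from thinned cells Vcan stood at 5.62 and Ifitm1 at 3.64.

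Jchain, the joining chain of secreted antibodies, went from 3.88 to 59.5 CPM (log2 ratio 3.94, 3.59 to 4.30) in Csf1r-positive cells, while in the remaining cells it went from 362 to 341 CPM. Plasma cell markers in the Csf1r-positive class, Jchain among them, summed to 460 CPM with PBS and 911 CPM with AraC+Dox. The part of plasma cells in the Jchain value was not tested. With classes drawn from thinned cells Jchain stood at 2.96. Pf4, platelet factor 4, went from 10.2 to 58.0 CPM (log2 ratio 2.51, 2.28 to 2.73). The megakaryocyte markers summed to 20.3 and 82.1 CPM, but Pf4 is itself in that sum and makes up much of it. Pf4 reversed with a stricter class: it stood at -0.92 in cells with at least 2 Csf1r UMIs, and at -0.31 with classes drawn from thinned cells. The erythroid markers summed to 26.8 and 82.2 CPM.

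At the low end of the class were Angpt1, from 28.9 to 2.35 CPM (log2 ratio -3.62, -4.03 to -3.24), and Adgrl4, from 49.3 to 4.04 CPM (log2 ratio -3.61, -3.91 to -3.32). Pbx3 went from 69.8 to 9.20 CPM (log2 ratio -2.92, -3.13 to -2.72) and Cd34 from 98.6 to 22.7 CPM (log2 ratio -2.12, -2.26 to -1.98). Both were at least 4-fold lower. Of 17 stem and progenitor genes 12 were lower and 1 higher (median -0.74), including Flt3, from 70.2 to 30.9 CPM (log2 ratio -1.18), and Gata2, from 17.9 to 4.74 CPM (log2 ratio -1.92). Fnbp1l, which links membrane curvature to actin, went from 158 to 45.6 CPM (log2 ratio -1.79), and Wipi1, an autophagosome protein, from 52.9 to 14.8 CPM (log2 ratio -1.84). Vcam1, an adhesion molecule of macrophages, went from 66.5 to 20.3 CPM (log2 ratio -1.71). The 10 macrophage markers, Vcam1 among them, summed to 433 and 257 CPM. In cells with at least 2 Csf1r UMIs Pbx3 stood at -2.16 and Xlr at -2.25.

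Growth, granule and interferon lists in Csf1r-positive cells had medians nearer 0 than in the remaining cells. Serine and one-carbon genes were higher in 6 of 10 and lower in 0 (median 0.50), with Phgdh from 41.8 to 95.6 CPM (log2 ratio 1.19, 1.07 to 1.31). Histones were higher in 12 of 20 and lower in 0 (median 0.42), S phase genes in 10 of 28 and lower in 0 (median 0.17), and primary granule genes in 6 of 10 and lower in 1 (median 0.40). Of 33 interferon response genes 13 were lower and 5 higher (median -0.23): Irf1 went from 36.1 to 22.8 CPM (log2 ratio -0.66) and Irf7 from 44.5 to 30.5 CPM (log2 ratio -0.54). The differences in medians between classes were not tested. Pfkp went from 56.6 to 77.0 CPM (log2 ratio 0.44, 0.34 to 0.55) and Eno1 from 121 to 319.5 CPM (log2 ratio 1.41, 1.34 to 1.47). In Camp+Ngp-high cells Pfkp went from 25.2 to 29.6 CPM (log2 ratio 0.23, -0.28 to 0.76), and with the class narrowed to 6% of UMIs from Camp and Ngp it stood at -0.43. Cxcl2, a neutrophil chemokine, was higher in Csf1r-positive cells, from 46.2 to 65.5 CPM (log2 ratio 0.50), but lower in the remaining cells, from 44.2 to 27.8 CPM (log2 ratio -0.67).

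The Camp+Ngp-high cells carry the granule genes of maturing neutrophils by their rule, and their 14 neutrophil markers summed to 197297 and 205995 CPM, with 1 of 14 higher and 4 lower. They were 227 and 257 cells with 2343478 and 2432626 UMIs, so counting intervals are wider. In them immediate early genes and interferon-induced membrane genes were higher with AraC+Dox, and the stefins, small inhibitors of cysteine proteases, were lower. Of 5276 genes 68 were higher (1.29%) and 63 lower (1.19%). By the list rule 594 of 8618 genes were higher (6.89%) and 801 lower (9.29%), with a median of -0.029.

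Immediate early genes, which are switched on within minutes of a signal or of handling, were higher in 11 of 17 measured and lower in 0, with a median of 0.45. Fosb went from 17.1 to 113 CPM (log2 ratio 2.73, 2.25 to 3.25), Jun (chr4:95049034-95052222, minus strand) from 67.0 to 297 CPM (log2 ratio 2.15, 1.90 to 2.41) and Egr1 from 5.97 to 37.4 CPM (log2 ratio 2.65, 1.83 to 3.57). Dusp1, a phosphatase of MAP kinases, went from 24.3 to 78.5 CPM (log2 ratio 1.69, 1.26 to 2.14), Jund from 81.1 to 252 CPM (log2 ratio 1.63) and Fos from 41.4 to 113 CPM (log2 ratio 1.44). Members near level were Ier2, from 176 to 159 CPM, and Junb, from 68.7 to 75.2 CPM. In Csf1r-positive cells 8 of 19 were higher and 0 lower, with Jun from 409 to 897 CPM (log2 ratio 1.13) and Egr1 from 16.6 to 59.3 CPM (log2 ratio 1.84). In the remaining cells 9 of 19 were higher and 1 lower, with Jun from 308 to 641 CPM (log2 ratio 1.06) and Fosb from 166 to 239 CPM (log2 ratio 0.52). Jun passed the 2-fold rule in all 3 classes. After thinning to 3000 UMIs Jun was found in 46.7% and 75.3% of the remaining cells, and in 55.7% and 75.5% of the cells marked as B or T cells, so the share was higher with AraC+Dox in lymphocyte-marked cells too. The part of sample handling was not tested.

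The promoters of Jun and Dusp1 are shown because both genes were higher together and both hold a match to the cyclic AMP response element. The sequences are the bases upstream of the RefSeq start on GRCm38.p6 (chr4:95052223-95052472 and chr17:26508520-26508722, both minus strand), 5′ to 3′, with matches to TGACNTCA on either strand in capitals. Jun has it 45 to 38 bases before the start, and Dusp1 143 to 136 bases before. For Dusp1 the 47 bases nearest the start, which lie in an annotated exon, are left out.
Jun: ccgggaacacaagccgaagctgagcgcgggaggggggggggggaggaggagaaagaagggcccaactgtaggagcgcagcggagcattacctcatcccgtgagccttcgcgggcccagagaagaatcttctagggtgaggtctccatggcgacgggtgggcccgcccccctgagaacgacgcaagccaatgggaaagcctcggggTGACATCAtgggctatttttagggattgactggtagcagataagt
Dusp1: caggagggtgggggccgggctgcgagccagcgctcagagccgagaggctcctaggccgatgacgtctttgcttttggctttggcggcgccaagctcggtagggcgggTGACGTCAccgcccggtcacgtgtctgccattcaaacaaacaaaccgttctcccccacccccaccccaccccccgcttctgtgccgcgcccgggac
Among all 32544 RefSeq promoters, 7.43% hold that motif in the 250 bases upstream of the start, and 6.73% hold the AP-1 motif TGANTCA, which was found in neither sequence. The upstream sequence of Fosb held neither motif.

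The interferon-induced membrane proteins led the interferon list of the Camp+Ngp-high cells. There 6 of 23 interferon response genes were higher and 0 lower (median 0.62). Ifitm1 (chr7:140967221-140969825, plus strand) went from 4.69 to 109.8 CPM (log2 ratio 4.55, 3.68 to 5.57), Ifitm3 from 457 to 1504 CPM (log2 ratio 1.72, 1.62 to 1.82) and Ifitm2 from 603 to 1343 CPM (log2 ratio 1.16). The regulators Irf1, from 17.1 to 23.4 CPM, and Irf7, from 6.40 to 9.87 CPM, had intervals that spanned 0. With the class widened to cells with at least 1% of UMIs from Camp and Ngp, the list median was -0.17 and Ifitm1 stood at 2.52. Cd38 went from 6.40 to 36.6 CPM (log2 ratio 2.51, 1.72 to 3.41), and Cxcl2 from 6.83 to 34.9 CPM (log2 ratio 2.36, 1.57 to 3.23), and in the widened class these stood at 1.49 and -0.46. In the class narrowed to 6% Cxcl2 stood at 1.65.

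The myeloid stefin genes lie together on chromosome 16. Of 8 measured in Camp+Ngp-high cells 6 were lower and 0 higher (median -2.0), and these 6 are all of that cluster. Stfa1 (chr16:36276951-36285373, plus strand) went from 5223 to 468 CPM (log2 ratio -3.48, -3.57 to -3.39), and BC100530 from 7831 to 1026 CPM (log2 ratio -2.93, -2.99 to -2.87). Stfa3 (chr16:36450537-36455392, minus strand) went from 241 to 5.76 CPM (log2 ratio -5.39, -6.27 to -4.63), Stfa2 from 474 to 114 CPM (log2 ratio -2.06, -2.25 to -1.87), Stfa2l1 from 761 to 319.8 CPM (log2 ratio -1.251, -1.37 to -1.13) and Gm5483 from 2496 to 645 CPM (log2 ratio -1.95). These 6 genes were lower by 2-fold or more in the class. Cstb, cystatin B, a stefin that lies elsewhere and is made by most cells, went from 76.8 to 61.7 CPM (log2 ratio -0.32, -0.64 to 0.0038). In the remaining cells 6 of 7 stefins were lower (median -2.39), with Stfa1 from 262 to 49.3 CPM (log2 ratio -2.41) and Stfa2 from 32.3 to 4.66 CPM (log2 ratio -2.79). In the Csf1r-positive cells 5 of 6 were lower (median -2.10). Over all cells of the f/f pair Stfa1 went from 2403 to 2773 CPM (log2 ratio 0.21) and BC100530 from 2985 to 3293 CPM, while Stfa3 went from 134 to 59.1 CPM (log2 ratio -1.18). In the f/f pair Stfa3 was thus the one of these that was lower, and the difference between the pairs was not tested. At a Camp+Ngp limit of 1% Stfa3 stood at -3.78 and Stfa2 at -2.95, and at 6% Stfa1 stood at -4.20.

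Upstream sequences of a pair of stefins are shown because both genes were lower and the sequences are alike. Likeness of the transcripts was not measured, so the split of reads among the copies is uncertain. They are the 250 bases before the RefSeq start on GRCm38.p6, for Stfa2l1 chr16:36156561-36156810 on the plus strand and for Stfa3 chr16:36455393-36455642 on the minus strand, 5′ to 3′. Capitals mark TTTAAA and, on either strand, GAGGAA, a core bound by ETS factors.
Stfa2l1: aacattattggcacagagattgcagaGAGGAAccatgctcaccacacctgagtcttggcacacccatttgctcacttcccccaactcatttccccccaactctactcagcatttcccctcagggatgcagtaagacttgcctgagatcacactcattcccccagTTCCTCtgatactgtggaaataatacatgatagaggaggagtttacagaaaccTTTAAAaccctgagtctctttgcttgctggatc
Stfa3: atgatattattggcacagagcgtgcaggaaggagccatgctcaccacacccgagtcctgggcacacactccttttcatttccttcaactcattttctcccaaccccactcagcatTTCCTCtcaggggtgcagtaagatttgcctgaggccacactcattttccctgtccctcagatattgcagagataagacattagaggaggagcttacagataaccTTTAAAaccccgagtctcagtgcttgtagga
TTTAAA lay 33 to 28 bases before the start of Stfa2l1 and 31 to 26 before that of Stfa3. Of all promoters 12.0% hold TTTAAA and 23.4% GAGGAA in this window. The upstream 250 bases of Stfa1, Stfa2, Stfa2l1 and Stfa3 were 82% to 90.8% identical in pairs.

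Granule genes in the Camp+Ngp-high cells did not move together. Secondary and tertiary granule genes were lower in 7 of 17 and higher in 2 (median -0.15). Lyz2, lysozyme, went from 2878 to 831 CPM (log2 ratio -1.79, -1.86 to -1.72), Mmp8, neutrophil collagenase, from 97.7 to 39.1 CPM (log2 ratio -1.32, -1.68 to -0.97), Ltf, lactoferrin, from 2339 to 1289.5 CPM (log2 ratio -0.86, -0.92 to -0.80), and Chil3, a chitinase-like lectin, from 5620.3 to 3289 CPM (log2 ratio -0.77). Of the primary granule list 0 of 9 passed in either direction. Camp went from 34991 to 24964 CPM and Ngp from 20700.0 to 25799.7 CPM, values that the class rule bounds and that are given as a description. Other low genes were Cdkn1c, the cell cycle inhibitor p57, from 116 to 29.2 CPM (log2 ratio -2.0), and Thbs1, thrombospondin-1, from 24.3 to 4.11 CPM (log2 ratio -2.56). Vcam1 went from 20.5 to 1.64 CPM (log2 ratio -3.64, -5.57 to -2.19) and Ldhb, a lactate dehydrogenase subunit, from 26.9 to 4.11 CPM (log2 ratio -2.71, -3.84 to -1.74). Histones were higher in 12 of 20 and lower in 1 (median 0.55), with Hist2h2aa1 from 18.3 to 62.9 CPM (log2 ratio 1.78). At a limit of 6% Hist2h2aa1 stood at 1.05, Thbs1 at -3.84 and Vcam1 at -2.54, and at 1% Ldhb stood at -1.74 and Vcam1 at -4.29. Of 11 B cell markers 8 and 5 were at 0 in this class, and of 11 T cell markers 6 and 5.

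**Figure D3:**
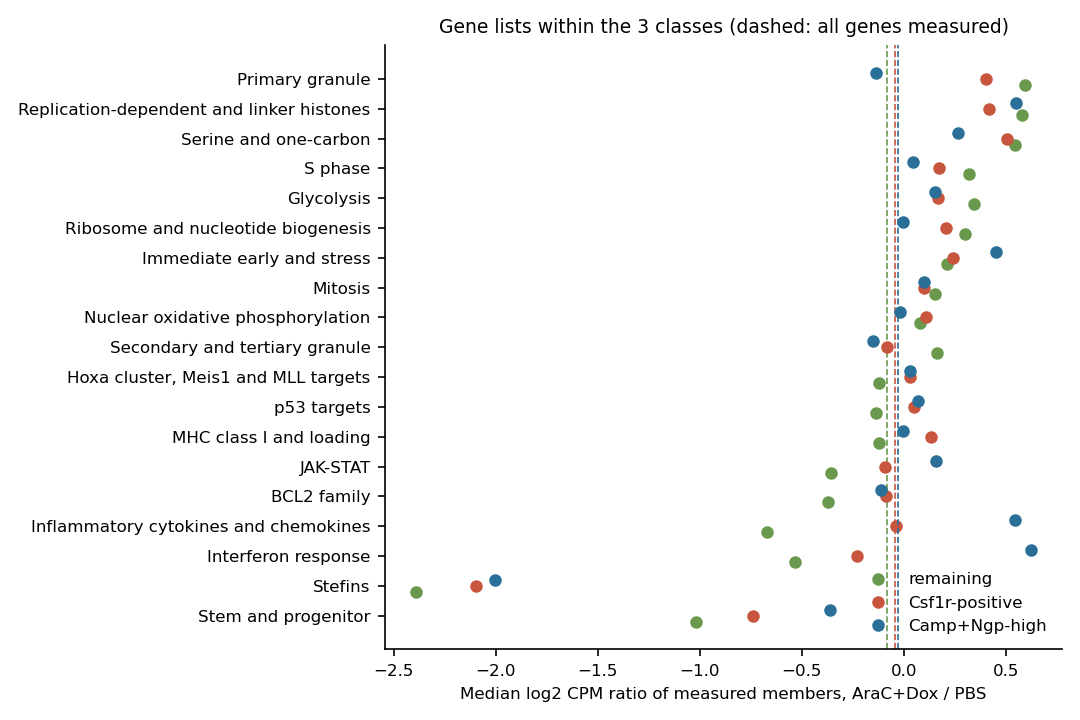
Median log2 ratio of CPM, AraC+Dox over PBS (x axis), of the measured members of 19 gene lists (y axis) in the 3 classes; dashed lines are the medians over all genes measured in each class. The stefins lie at -2.0 to -2.39 in all classes, and the interferon list lies at -0.53 in the remaining cells and 0.62 in Camp+Ngp-high cells.

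In all 3 classes together 16 of 4844 genes were higher in each (0.33%) and 8 lower in each (0.165%). Of the 16 higher genes 7 are histone genes and 4 gene models known by a code, among them Hist1h2ap, Hist1h2ac and Hist1h4h. The others were Jun, Ifitm1, Krtcap3, Polr2l, a subunit shared by RNA polymerases, and Slc20a1, a phosphate transporter. Polr2l went from 25.9 to 74.4 CPM (log2 ratio 1.52) in the remaining cells and from 9.39 to 36.6 CPM (log2 ratio 1.96) in Camp+Ngp-high cells. The 8 lower genes were Ptpn6, Xlr, the stefins Stfa1, BC100530 and Gm5483, and C130026I21Rik, Rps27rt and Ftl1-ps1. Xlr went from 23.9 to 0.822 CPM (log2 ratio -4.86, -7.94 to -2.94) in Camp+Ngp-high cells and from 72.5 to 8.97 CPM (log2 ratio -3.01, -3.22 to -2.81) in Csf1r-positive cells. In Camp+Ngp-high cells at a limit of 6% Xlr stood at -1.254. These genes did not all go the same way over all cells of the f/f pair. Among those higher in each class, Ifitm1 stood at 2.28 there and Krtcap3 at 1.06. Hist1h2ap stood at -2.48, Hist2h2aa1 at -1.95 and Polr2l at -0.81. Among those lower in each class, Xlr stood at -4.23 and Ptpn6 at -1.69, but C130026I21Rik at 2.45 and Ftl1-ps1 at 0.73.

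Set beside the f/f pair, with which this pair shares no library, lower genes were shared more than higher ones. Of 5477 genes at 20 CPM in either library of both pairs, 69 were lower in the Δ/Δ pair and 41 in the f/f pair, and 19 in both, which is 27.5% of the first and 46.3% of the second. Of 24 and 14 higher genes 1 was higher in both, 4.17% and 7.14%, so the higher side rests on 1 shared gene. For scale, the 27.5% stands beside 41 lower genes of all 5477 in the f/f pair, and the 46.3% beside 69 of 5477 in the Δ/Δ pair. On the higher side, the 4.17% stands beside 14 of 5477 and the 7.14% beside 24 of 5477. Cd34 over all cells went from 102 to 19.3 CPM in the Δ/Δ pair and from 31.9 to 5.33 CPM in the f/f pair. Pbx3 went from 78.8 to 7.68 CPM and from 49.6 to 10.5 CPM, Angpt1 from 46.4 to 4.16 CPM and from 12.5 to 1.73 CPM. Pfkp went from 45 to 63.1 CPM (log2 ratio 0.49) and from 32.1 to 39.0 CPM (log2 ratio 0.28). Phgdh went from 52.9 to 107 CPM in the Δ/Δ pair but from 9.19 to 9.11 CPM in the f/f pair, and Gdf3 from 9.61 to 51.6 CPM but from 2.14 to 0.354 CPM. The difference between the pairs was not tested. Ptpn6 was lower in the AraC+Dox library of both pairs, so genes that moved with treatment and genes that moved with Ptpn6 cannot be told apart.

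**Figure D4:**
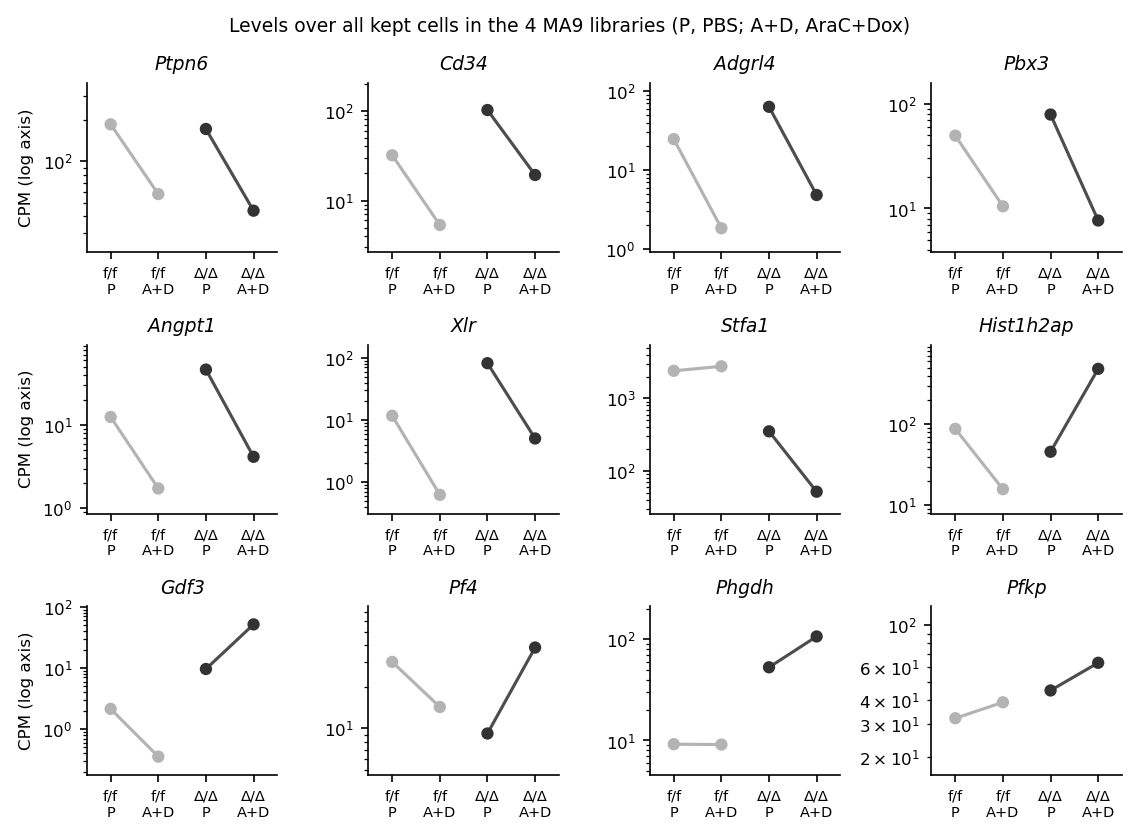
CPM over all kept cells (y axis, log scale, set per gene) of 12 genes in the 4 MA9 libraries, with lines joining PBS and AraC+Dox within a pair; grey is the f/f pair and black the Δ/Δ pair. Ptpn6, Cd34, Adgrl4, Pbx3, Angpt1 and Xlr are lower with AraC+Dox in both pairs, while Hist1h2ap, Gdf3 and Pf4 are higher in the Δ/Δ pair and lower in the f/f pair.

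Shares of cells with a UMI gave the same order for these genes after each cell was thinned to 3000 UMIs. Thinning left out 2120 remaining cells with PBS and 1339 with AraC+Dox. Among the thinned remaining cells (5242 and 5303) Cd34 was found in 26.3% and 5.83%, against 47.8% and 13% unthinned. Adgrl4 was found in 17.9% and 1.38% (unthinned 42.3% and 5.88%), and Xlr in 22.3% and 0.83% (48.3% and 2.66%). Each was found in a smaller share of AraC+Dox cells at equal depth. Hist1h2ap was found in 9.56% and 56.1% (unthinned 25.9% and 71.6%), and Gdf3 in 2.86% and 13% (7.0% and 41.6%). Elane was found in 49.3% and 75.9% (60.3% and 84.0%). As a guide to free RNA, cells marked as B or T cells (246 and 159 after thinning, median depths 5508 and 7675 UMIs against 10770 and 13130 in the remaining cells) held Cd34 in 6.10% and 2.52%, Hist1h2ap in 3.66% and 17.6% and Elane in 17.1% and 37.1%. The Elane share in these lymphocyte-marked cells was thus itself higher with AraC+Dox, and the part of free RNA in the Elane values was not tested.

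**Figure D5:**
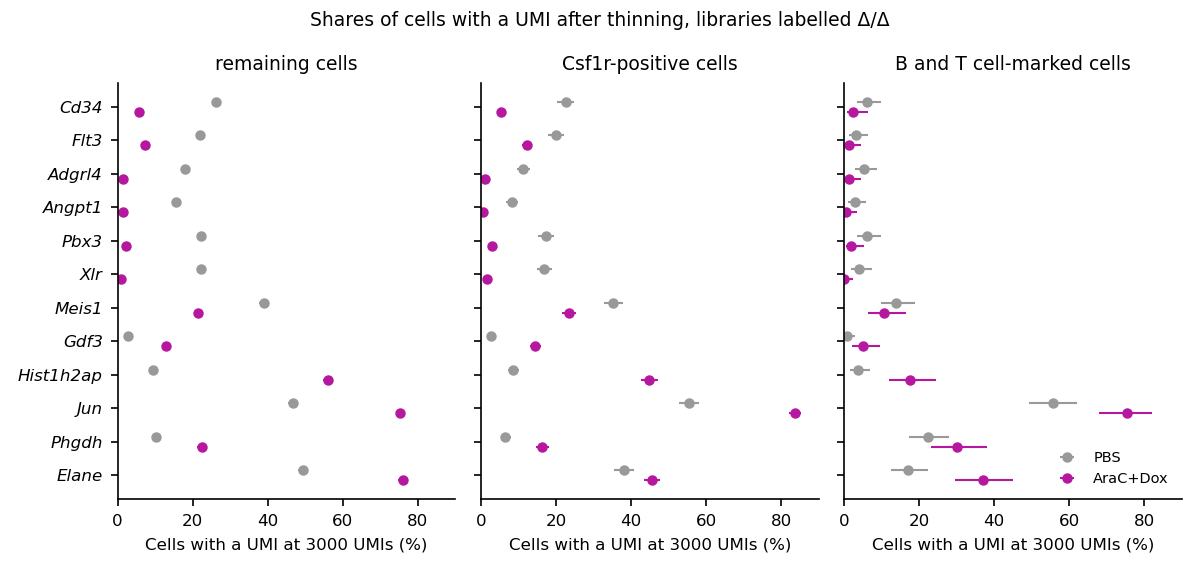
Share of cells with at least 1 UMI of each gene (%, x axis) after thinning to 3000 UMIs, in the remaining, Csf1r-positive and B or T cell-marked cells; grey is PBS, magenta AraC+Dox, and lines are exact 95% binomial intervals. Cd34, Adgrl4, Pbx3 and Xlr are found in fewer AraC+Dox cells in the first 2 panels, and Hist1h2ap, Gdf3 and Phgdh in more.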

How the data were processed

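Bone marrow cells were profiled on the Chromium 3′ platform. Per the file headers and the submitters' processing notes, the authors made gene by barcode matrices of UMI counts with Cell Ranger 3.0.2 on mm10, and the deposited counts are not normalized. How barcodes were chosen, and whether doublets were removed, is not stated there. Groups were taken from the labels, 1 library each. Cells were kept, split, summed and scaled as given in the results, with Python 3.11.15, numpy 2.4.6, scipy 1.17.1 and pandas 2.3.3, and no test was run. Ratios carry exact conditional (Clopper-Pearson) 95% intervals, shares exact binomial ones, and a count of 0 was set to 3 counts in a ratio. With 90247539 and 103581646 UMIs in kept cells, counting intervals were narrow for abundant genes and wide for low genes of the small Camp+Ngp-high class. The spread between mice could not be measured.

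Per class the 10 highest and 10 lowest genes past the 2-fold rule were named, leaving out mitochondrial, ribosomal protein, haemoglobin, sex-linked, antibody and T cell receptor genes and coded gene models, plus up to 4 members per gene list with the largest absolute ratio, and genes past the rule in all classes. A few genes that met this rule are not reported here. Hlf, Hoxa9, Ptpn11, Ier2, Junb, Stfa2l1, Klf4, Stfa3 over all cells and list members carried from one class to another were added after their values were seen. Members, lists and rules were chosen with earlier results of these data known. A symbol on several features was read from that with most UMIs. Coordinates are from GENCODE vM21 on GRCm38, where 30934 of 31053 features matched, and upstream sequences are from RefSeq (GRCm38.p6). Doublets stayed in: Scrublet's automatic threshold marked 0% of cells in both libraries, so 300 (3.18%) and 380 (4.02%) cells marked at the mean threshold of the f/f libraries were left out as an alternative. Other alternatives changed the cell filters, class limits, depth, scaling and minimum level. Leaving out cells with the stricter B and T cell marks was chosen after seeing the data.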

Additional observations from a re-analysis of the deposited data

Results flagged for a closer look

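The genes below moved in opposite directions in the Δ/Δ pair and the f/f pair, which share no library. They are not the only genes that did so. With 1 library a group the difference was not tested for any of them. The values are CPM over all kept cells, and the difference is the log2 ratio (AraC+Dox over PBS) of the Δ/Δ pair minus that of the f/f pair.

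Ly6k, a surface protein of the LY6 family, went from 55.8 to 14.4 CPM in the Δ/Δ pair and from 2.71 to 32.4 CPM in the f/f pair, a difference of -5.53. Satb1, a chromatin organiser of lymphoid and stem cells, went from 31.8 to 12.8 CPM and from 12.6 to 45.9 CPM, a difference of -3.18. Hmga1b, a near-identical copy of the chromatin protein gene Hmga1 whose reads may be split between the copies, went from 23.8 to 9.20 CPM and from 22.1 to 45.9 CPM, a difference of -2.42. These 3 genes were lower with AraC+Dox in the Δ/Δ pair and higher in the f/f pair.

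Pf4 went from 9.16 to 38.5 CPM and from 30.2 to 14.3 CPM, a difference of 3.15. Hist1h2ap went from 45.8 to 487 CPM and from 88.0 to 15.8 CPM, a difference of 5.89. Both were higher with AraC+Dox in the Δ/Δ pair and lower in the f/f pair. Camp+Ngp-high cells were 2.41% and 2.72% of the Δ/Δ libraries and 36.9% and 33.6% of the f/f libraries, and the part of this difference in makeup was not tested.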

How the results depend on the processing

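The log2 ratios of class shares were 0.18 for Camp+Ngp-high cells, 0.57 for Csf1r-positive cells and -0.16 for the remaining cells. The first stood at -0.14 at a Camp+Ngp limit of 6%. The second stood at 0.44 with at least 1000 genes a cell and at 0.71 with at least 2 Csf1r UMIs. The third stood at -0.14 with at least 1000 genes, -0.19 at a Camp+Ngp limit of 1%, -0.068 with at least 2 Csf1r UMIs and -0.061 with classes from thinned cells. Without a minimum level 637 genes were higher and 1041 lower over all cells, 192 and 286 in Camp+Ngp-high, 482 and 404 in Csf1r-positive and 547 and 1200.0 in the remaining cells. At 50 CPM the counts were 23 and 44, 24 and 21, 27 and 27, and 28 and 58. At a Camp+Ngp limit of 6%, with fewer cells, Camp+Ngp-high cells had 126 higher and 144 lower. The other alternatives kept these counts within 1.5 times. Cxcl2 in Camp+Ngp-high cells reversed to -0.46 at a limit of 1% and Pfkp there to -0.43 at 6%. Pf4 in Csf1r-positive cells reversed to -0.92 with at least 2 Csf1r UMIs and to -0.31 with thinned cells, and Wfdc21 in the remaining cells to -0.081 without the wider lymphoid mark. In Camp+Ngp-high cells the serine list reversed to -0.032 at 6%, and at 1% the interferon list reversed to -0.17 and the MHC class II list to -1.55. The cause was not tested. Across the other alternatives 643 values of single genes stayed within the interval and 1069 list medians moved by less than 0.25, while 104 and 30 moved by more. Median-of-ratios scaling raised all log2 ratios by 0.098 over all cells, and by 0.054, 0.044 and 0.11 in the classes as ordered above. No paired analysis was possible because each group is 1 library. Depth limits the Camp+Ngp-high class most, with 227 and 257 cells.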

Other observations

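Values of other gene lists in the Δ/Δ pair are given here, read by the same list rule and, as above, with no test. Mitochondrially encoded genes were higher in 4 of 13 and lower in 0 in the remaining cells (median 0.21), with 3 of 13 higher in each of the other classes. mt-Nd4l, a subunit of complex I, went from 163 to 279.9 CPM (log2 ratio 0.78, 0.74 to 0.81) in the remaining cells, and from 142 to 50.2 CPM over all cells of the f/f pair. The share of barcodes past the mitochondrial limit was 5.22% with PBS and 8.30% with AraC+Dox, and its part was not tested. Genes of the tricarboxylic acid cycle stood near level in the remaining cells, with 1 of 19 higher and 0 lower (median 0.011).

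Values of a metallothionein gene are given by class, with those of S100 and iron genes beside it. Mt2, which binds zinc and copper, went from 21.8 to 59.0 CPM (log2 ratio 1.43, 1.35 to 1.52) in the remaining cells and from 11.3 to 31.1 CPM (log2 ratio 1.46, 1.23 to 1.69) in Csf1r-positive cells. In Camp+Ngp-high cells it went from 6.40 to 6.17 CPM, low values in a class of 227 and 257 cells. A difference between classes was not tested. Mt2 was higher in the f/f pair too, from 2.14 to 8.62 CPM over all cells. S100a8, a subunit of calprotectin, went from 7124 to 12576 CPM (log2 ratio 0.82, 0.82 to 0.82) in the remaining cells. S100a4, a calcium-binding protein of motile cells, went from 54.0 to 81.6 CPM (log2 ratio 0.60) in the remaining cells and from 222 to 295 CPM (log2 ratio 0.41) in Csf1r-positive cells. Slc40a1, the iron exporter ferroportin of macrophages, went from 41.8 to 15.8 CPM (log2 ratio -1.41, -1.58 to -1.23) in Csf1r-positive cells.

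Values of antigen presentation genes are given by class, and those of MHC class II varied with the processing. For scale, 9.54% of all genes measured were higher and 14.7% lower in Csf1r-positive cells. These shares were 10.2% and 24.2% in the remaining cells and 6.89% and 9.29% in Camp+Ngp-high cells. In the remaining cells the lower counts below are near that share. MHC class I and loading genes were higher in 6 of 20 and lower in 2 in Csf1r-positive cells (median 0.13), and higher in 1 of 20 and lower in 4 in the remaining cells (median -0.12). MHC class II genes were higher in 1 of 11 and lower in 3 in the remaining cells (median 0.0097), with Cd74, the invariant chain, from 174 to 200.2 CPM. That median stood at 1.06 when cells with the wider lymphoid mark were left out. In Camp+Ngp-high cells 3 of 5 were higher and 1 lower (median 1.43). There it stood at 0.36 with at most 5% mitochondrial UMIs and at -1.55 at a Camp+Ngp limit of 1%.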
